A study of Mus musculus with 2 samples.

Results

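Stem-like progenitors were sought in cultures that lead fetal liver cells towards the T lineage, as the barcodes that still held transcripts of the stem cell transcription factors *Meis1*, *Hlf* or *Mecom*. The study sorted Sca-1+ cKit+ hematopoietic stem and progenitor cells (HSPCs), after removal of TER-119+ red cells, from livers of wild type CD1 mouse embryos at E13.5, and placed them on plates coated with the Notch ligand DL4 at 10 µg/mL and the adhesion molecule VCAM-1 at 2.32 µg/mL. The processed data are 2 droplet libraries, FL001 and FL002, which share genotype, stage, sort and coating. The study pooled cells captured straight after the sort with cells from later culture days, which it names. The labels do not say which of these days, or which embryos, a library holds, and no uncultured control was separate. Time in culture and cell type cannot therefore be told apart here.

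The members were chosen by their own counts of unique molecular identifiers (UMIs, 1 for each captured transcript), in barcodes that passed 1500 UMIs and 500 genes and had a mitochondrial share of 10% or less. A member had at least 2 UMIs of *Lmo2* and *Mef2c* together, at least 1 of *Meis1*, *Hlf* and *Mecom* together and at most 1 of *Cd3g*. It also had at most 1 UMI of the B lineage genes *Ighm*, *Ebf1* and *Cd79b*, at most 2 of the granulocyte genes *Elane*, *Ctsg*, *Ms4a3* and *S100a8*, and at most 1 of the megakaryocyte and erythroid genes *Pf4*, *Gp9*, *Gp1bb*, *Gata1* and *Klf1*. These conditions found 366 members among 5888 kept barcodes. In FL001 there were 135 of 1788, or 7.55% (95% exact binomial interval 6.37% to 8.87%), and in FL002 there were 231 of 4100, or 5.63% (4.95% to 6.38%). Each library is 1 sample, so no test was made, and all intervals cover counting error only.

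As background, *Meis1* encodes a homeodomain partner of HOX proteins, *Hlf* a PAR bZIP factor that marks blood stem cells, and *Mecom* a zinc finger protein needed for stem cell self-renewal. *Lmo2* bridges the TAL1 and GATA factors and *Mef2c* acts in early lymphoid and myeloid progenitors. Fetal liver stem cells divide and express these factors together with posterior *Hoxa* genes, and they are known to lose them when Notch signalling through DL4 turns on *Hes1* and *Tcf7* and starts T lineage commitment.

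The 18 genes of the rule are given as a description only. *Meis1* was found in 83 members of FL001 (61.5%) and 128 of FL002 (55.4%), *Hlf* in 77 (57.0%) and 117 (50.6%), and *Mecom* in 29 (21.5%) and 46 (19.9%). The 3 genes were seldom caught in the same barcode, with all of them in 7 members of FL001 and 8 of FL002. *Meis1* was the only one of them in 41 and 86 members, *Hlf* in 39 and 75, and *Mecom* in 8 and 18. Membership often rested on a single molecule, since 56 of 135 members in FL001 and 137 of 231 in FL002 had exactly 1 UMI of the 3 genes. At the other edges, 32 and 66 members had just 2 UMIs of *Lmo2* and *Mef2c*, and 37 and 76 barcodes that met every other condition stayed outside with 1. Only 5 members of FL001 and 19 of FL002 held a UMI of *Cd3g*, while 2 and 3 barcodes stayed outside with 2.

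The nearest comparison set was the progenitors that met every other condition but had no UMI of *Meis1*, *Hlf* or *Mecom*, 105 barcodes of FL001 and 269 of FL002. They are called negative progenitors here, although a transcript can be present and missed. Median depth was 6784 UMIs in members and 7545 in negative progenitors of FL001, and 5272 and 5455 in FL002. All other kept barcodes had medians of 7835 and 4730 UMIs, and the barcodes with at least 2 UMIs of *Cd3g*, 1021 and 2382 of them, had 7732 and 4396. The members were thus a little shallower than the negative progenitors in both libraries. Median mitochondrial share in members was 3.33% and 3.22%. Of the members, 3 in FL001 and 0 in FL002 were among the barcodes with the highest doublet scores, 116 of 1788 in FL001 and 252 of 4100 in FL002 (a limit at the top 5%, with ties at the limit included). UMIs of *Xist* and of a Y-linked gene together, which 1 cell should not hold, were in 1 member of FL001 (0.741%) and 4 of FL002 (1.73%), against 6 (5.71%) and 9 (3.35%) of the negative progenitors and 63 (3.81%) and 101 (2.61%) of all other kept barcodes. The libraries shared 10 kept barcode sequences, and no sequence was a member in both.

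The label was checked against stem cell surface genes that the rule did not use. *Cd34*, a sialomucin of early progenitors, was found in 107 of 135 members of FL001 (79.3%) and 160 of 231 of FL002 (69.3%), against 11.6% and 6.97% of *Cd3g* barcodes. Several other stem cell surface genes were low. *Ly6a*, which encodes the sorted antigen Sca-1, was found in 5.93% and 3.9% of members and in 4.6% and 3.86% of *Cd3g* barcodes, so that its share was close to the background. *Kit*, the other sorted antigen, had a level of 83.3 and 71.8 counts per 1000000 UMIs of the set (CPM) in members of FL001 and FL002 and 58.6 and 58.8 CPM in all other kept barcodes. *Procr*, which encodes the protein C receptor of stem cells, had 24 and 13 UMIs over all members (24.1 and 10.3 CPM), against 4.25 and 7.54 CPM in all others. *Slamf1* (CD150) had 7 and 6 UMIs, *Tek* (the angiopoietin receptor) 3 and 6, and *Vwf* (von Willebrand factor) 0 and 3. Apart from *Cd34*, the surface genes named here were at low counts, near the background or, for *Kit*, within 2-fold. *Cd34* was not particular to the members, since the negative progenitors held it at 219 and 239.7 CPM beside 300.0 and 284 CPM in members. The label therefore names what the rule selected.

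Members were then compared with all other kept barcodes, in each library alone. Most of the others were *Cd3g* barcodes, which the rule kept out of the members, so the differences are a description of the rule as well. Of 3144 genes with at least 50 CPM in either set in both libraries, rule genes left out, 61 were past 2-fold higher in members in both libraries (1.94%) and 105 past 2-fold lower (3.34%), while none was past 2-fold in opposite directions. The median log2 ratio over all genes tested was -0.01 in FL001 and 0.00 in FL002. A gene that reached 50 CPM only in members, or only in the others, was by that fact higher there. Counts and medians within the lists below therefore depend on this minimum. The genes with the largest smaller ratio included *Adgrl4*, *Meg3*, *Gcnt2*, *Hoxa9*, *Cnrip1*, *Gng11*, *Cdkn1c*, *Fscn1*, *Apoe* and *Klf2* on the higher side. On the lower side they were *Trdc*, *Cd3d*, *Arpp21*, *Txk*, *Il2ra*, *S100a9*, *Mpzl2*, *Gzma*, *Ptcra*, *Tcrg-C4*, *Tcrg-C2* and *Timp2*.

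*Adgrl4*, an adhesion G protein-coupled receptor best known from endothelium, had 222 CPM in members of FL001 and 17.2 CPM in all others, a ratio of 12.9 (10.7 to 15.5). In FL002 it had 181 and 15.5 CPM, a ratio of 11.6 (9.76 to 13.8). It was more than 10-fold higher in each library. *Gcnt2*, which branches the I blood group glycan, had 73.2 and 50.5 CPM in members against 5.73 and 6.59 CPM, ratios of 12.8 (9.18 to 17.7) and 7.66 (5.59 to 10.4). *Apoe*, a carrier of lipid, had 325 and 190.1 CPM in members against 53.7 and 44.5 CPM. *Cnrip1*, a cannabinoid receptor partner, had 94.3 and 99.4 CPM against 15 and 18.1 CPM. These 3 genes were higher by a smaller ratio than *Adgrl4* in each library, but the intervals of *Gcnt2* and *Adgrl4* overlapped in both. For *Gng11* (a G protein gamma subunit) the ratios were 5.38 and 5.26, and for *Fscn1* (an actin bundler) 4.49 and 4.81. *Cnrip1* overlaps *Plek*, and *Gcnt2* and *Meg3* overlap several non-coding genes. The sources used here do not say whether strand was used in counting, so reads of such pairs may be shared.

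**Figure D1:**
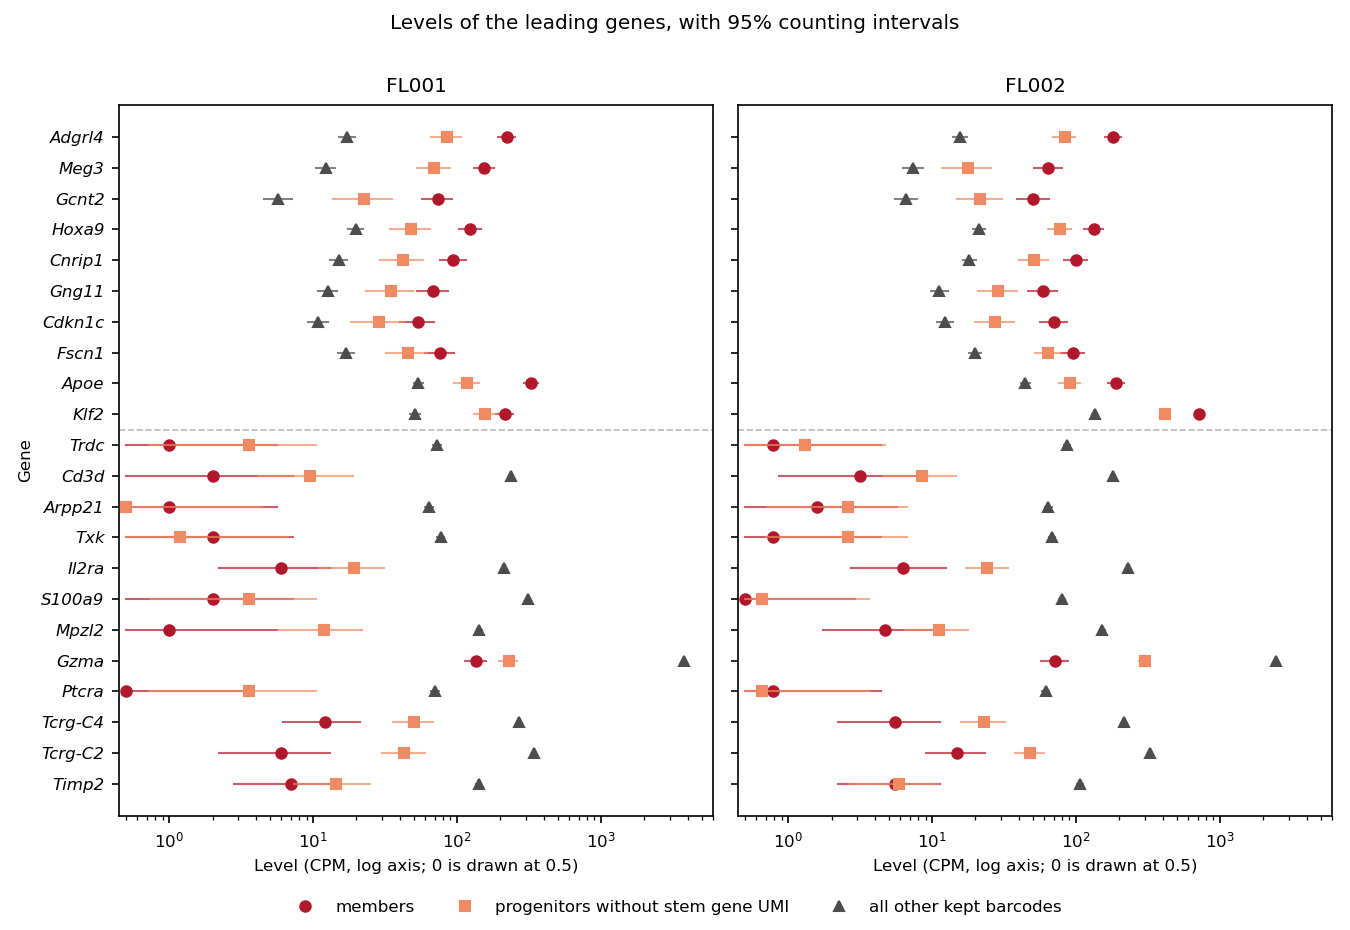
Level in CPM (log axis, 0 drawn at 0.5) of 10 genes among those most above and the 12 most below all other kept barcodes, for FL001 (left) and FL002 (right). Points are members, progenitors without a UMI of *Meis1*, *Hlf* or *Mecom* and all other kept barcodes, and bars are 95% exact Poisson intervals. Above the dashed line members lie highest and negative progenitors between the other sets, as for *Adgrl4* at 222, 84.8 and 17.2 CPM in FL001.

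Receptors and surface genes came next. Of 19 stem cell surface genes, 6 passed the minimum level and 2 were past 2-fold higher, none lower. *Cd34* had 300.0 and 284 CPM in members of FL001 and FL002 against 78.7 and 72.8 CPM in all others, ratios of 3.81 (3.35 to 4.34) and 3.9 (3.47 to 4.38). The list's median log2 ratio was 0.86 in FL001 and 0.65 in FL002, beside about 0 over all genes tested. Of 20 cytokine receptors, 3 passed the minimum level and 1 was past 2-fold higher. *Flt3*, the receptor of multipotent and early lymphoid progenitors, missed the minimum of 50 CPM, with 48.2 and 47.3 CPM in members against 15.2 and 14 CPM in all others.

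*Il7r*, the receptor subunit of lymphoid progenitors, had 2 and 3 UMIs over all members, and *Dntt*, the terminal transferase of lymphoid priming, had 0 in both libraries. Of 20 lymphoid priming genes, 9 passed the minimum level and 1 was past 2-fold lower. Among 20 integrin and homing genes, 6 passed, 1 was higher and 1 was lower. *Cd44*, a hyaluronan receptor, was the higher one at 56.2 and 60.7 CPM against 17.3 and 18.8 CPM. *Itga4*, a subunit of the VCAM-1 receptor, had 109 and 121 CPM against 130.1 and 127 CPM, within 2-fold.

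Stem cell regulators outside the rule were mostly within 2-fold. Of 20 stem cell regulators, 7 passed the minimum level, and only *Mycn* was past 2-fold, with 104 and 85.2 CPM in members against 44.7 and 40.4 CPM. The list's median log2 ratios were 0.32 and 0.31. *Hhex* had ratios of 1.8 and 1.72, *Lyl1* 1.25 and 1.24 and *Runx1* 0.939 and 0.712, all within 2-fold. *Gata2*, a stem cell factor, had 55.2 and 45.7 CPM in members and 12.8 and 14.8 CPM in all others, ratios of 4.31 (3.12 to 5.85) and 3.09 (2.29 to 4.11), but missed the minimum level in FL002.

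Of 20 *Hox* genes and cofactors, 2 passed and both were higher, with median log2 ratios of 2.21 and 2.18. Both reached 50 CPM in members alone, so that minimum favoured the higher direction in the count and the median. *Hoxa9*, a partner of MEIS1, had 123 and 133 CPM in members against 19.8 and 21.1 CPM, ratios of 6.25 (5.01 to 7.75) and 6.32 (5.26 to 7.58), and *Hoxa7* had 64.2 and 87.5 CPM against 18.6 and 27.1 CPM. *Hoxa9* overlaps *Mir196b*.

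Fetal and imprinted genes held several of the higher genes. Of 8 genes of the fetal program, 5 passed and 2 were higher. *Hmga2*, a chromatin protein of fetal stem cells, had 337 and 391 CPM in members against 101 and 99 CPM, and *Igf2bp2*, an RNA-binding protein, had 63.2 and 57.6 CPM against 14.7 and 15.2 CPM. They were not particular to the members, since negative progenitors held *Hmga2* at 233 and 303 CPM and *Igf2bp2* at 31.0 and 38.6 CPM. *Lin28b*, which blocks let-7 maturation, had 14 and 22 UMIs over all members and was too low to compare. Of 11 imprinted growth genes, 5 passed, 3 were higher and 1 was lower. The list's median log2 ratios were 2.30 and 1.85. Its sum, with *Gnas* the most abundant gene, was 1.05 and 0.751 times that in all others. *Meg3*, a maternally expressed long non-coding RNA, had 154 and 63.9 CPM in members against 12.2 and 7.39 CPM in all others, ratios of 12.5 (10 to 15.7) and 8.64 (6.51 to 11.4). Its neighbour *Dlk1* had 197 and 131 CPM against 34.8 and 36.3 CPM, and *Cdkn1c*, the cell cycle inhibitor p57, had 53.2 and 70.2 CPM against 10.8 and 12.3 CPM. *Meg3*, *Dlk1* and *Cdkn1c* reached 50 CPM in members alone, so that minimum favoured the higher direction in the list's count and median. *H19*, a non-coding RNA that is also maternally expressed, went the other way, with 97.3 and 95.4 CPM in members against 369 and 499 CPM, 3.79-fold (3.1 to 4.69) and 5.23-fold (4.37 to 6.31) lower.

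Of the cell cycle lists, replication and mitosis genes were within 2-fold, while 3 genes of the G1 list were not. Of 17 DNA replication genes tested, 0 were past 2-fold in either direction, and of 18 mitosis genes 0 were, with median log2 ratios of -0.11 and -0.27 for replication and 0.25 and 0.46 for mitosis. The summed mitosis list had 3040 CPM in members against 2604 CPM in FL001, a ratio of 1.17 (1.12 to 1.21), and 3397 against 2495 CPM in FL002, a ratio of 1.36 (1.32 to 1.40). After each barcode was thinned to 1500 UMIs, at least 3 UMIs of the mitosis list were found in 45.2% (36.6% to 54.0%) of members and 44.0% of all others in FL001, and in 58.0% (51.4% to 64.5%) and 42.5% in FL002. Without thinning the shares were 74.1% and 71.9% and then 76.2% and 64.6%. Of 8 genes of the G1 list tested, *Ccnd1* (cyclin D1) and *Cdkn1c* were higher and *Cdkn1a* (p21) was lower. *Ccnd1* had 97.3 and 104 CPM in members against 35.9 and 32.2 CPM, and *Cdkn1a* had 55.2 and 37.1 CPM against 186 and 171 CPM.

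T lineage genes lay far lower in members. This follows in part from the rule, which allowed at most 1 UMI of *Cd3g*. Of 20 T lineage genes, 9 were tested and all 9 were past 2-fold lower, with median log2 ratios of -3.84 and -3.83. Genes such as *Cd3d*, *Il2ra* and *Ptcra* reached 50 CPM in the other barcodes alone. That minimum thus favoured the lower direction in the count and the median. *Cd3d* had 2 and 4 UMIs over all members (2.01 and 3.15 CPM) against 236 and 179.7 CPM in all others. *Il2ra*, the CD25 gene, had 6.02 and 6.31 CPM against 212 and 230.4 CPM, 35.2-fold (16.1 to 96) and 36.5-fold (18.5 to 84.7) lower. *Ptcra*, which encodes the pre-T cell receptor alpha chain, had 0 UMIs in FL001, at least 23.5-fold lower against a floor of 3 UMIs over the members, and 1 UMI in FL002. Among T cell receptor genes the delta and gamma constant genes were low and *Trbc2* less so. *Trdc* had 1 UMI in each library, and *Tcrg-C2* and *Tcrg-C4*, near copies of each other, had 6.02 and 15 CPM and 12 and 5.52 CPM. *Trbc2*, a beta constant gene, had 329 and 266 CPM in members against 1492 and 1614 CPM in all others, 4.53-fold and 6.07-fold lower. Thinned to 1500 UMIs, 0 of 135 members of FL001 and 0 of 231 of FL002 had 3 UMIs of the T lineage list, against 38.8% and 40% of all others. Without thinning the shares were 9.63% and 7.36% of members and 75.5% and 73.9% of all others.

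Transcripts of T cells in members were set beside those of droplets with 1 to 100 UMIs, which hold mostly free RNA. *Gzma*, a granzyme that was abundant in these cultures, had 134 and 71 CPM in members, 3803 and 2451 CPM in all others and 3922 and 2141 CPM in the near-empty droplets. It was found in 20% and 20.3% of members. *Trbc2* had 1350.3 and 1634 CPM in the near-empty droplets, and *Cd3d* 217 and 204 CPM. The part of free RNA in the low counts of T cell genes in members was not tested.

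**Figure D2:**
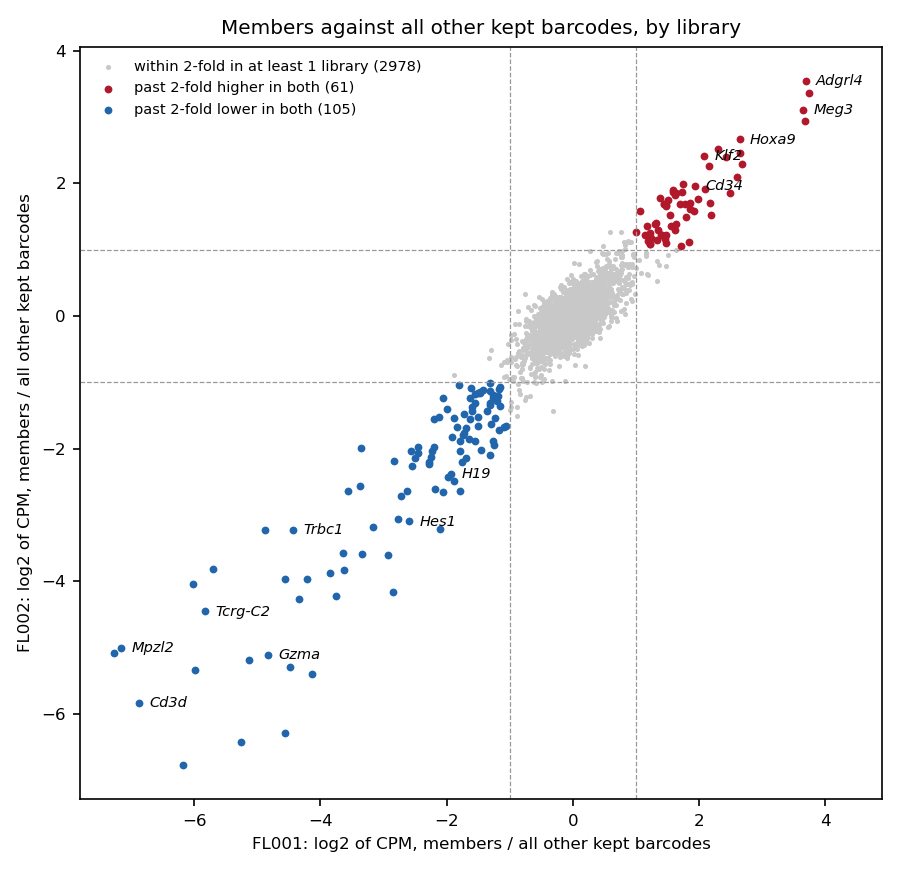
Log2 ratio of the level in members to that in all other kept barcodes, FL001 on the x axis and FL002 on the y axis, 1 point a gene, for 3144 genes tested. Dashed lines mark 2-fold, and the 61 higher genes (red) and 105 lower genes (blue) lie past it in both libraries. A set with 0 UMIs is drawn as if it had 3. *Adgrl4* lies at the upper right and *Cd3d* at the lower left.

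Most of the Notch genes tested were lower. Of 14 Notch receptors and targets, 9 were tested, 8 were past 2-fold lower and 0 higher, with median log2 ratios of -2.62 and -3.10. The 8 reached 50 CPM in the other barcodes alone, so that minimum favoured the lower direction in the count and the median. Of these 8, *Gata3*, *Il2ra*, *Ptcra* and *Tcf7* are also in the T lineage list and were counted there, and *Dtx1*, *Hes1*, *Notch1* and *Nrarp* are not. The rule held none of the 14 genes, but its limit on *Cd3g* set the members against T lineage cells here too. *Notch1*, the receptor itself, had 46.2 and 41 CPM in members against 144 and 149 CPM, 3.13-fold (2.34 to 4.29) and 3.63-fold (2.76 to 4.87) lower. *Hes1*, *Nrarp* and *Dtx1*, which the receptor is known to turn on, had ratios further from 1. *Hes1*, a bHLH repressor, had 14 and 14.2 CPM against 85 and 122 CPM, 6.05-fold (3.59 to 11.1) and 8.57-fold (5.41 to 14.5) lower. *Nrarp*, a feedback inhibitor of Notch, had 39.1 and 18.1 CPM against 167 and 168 CPM. *Dtx1*, a ubiquitin ligase of the pathway, had 9.03 and 12.6 CPM against 93.4 and 74.9 CPM. *Nrarp*, *Ptcra* and *Tcf7* overlap non-coding or predicted genes.

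The T lineage factors downstream of Notch were lower too. *Tcf7* (TCF-1) had 15 and 20.5 CPM against 216 and 301 CPM, 14.4-fold (8.69 to 25.7) and 14.7-fold (10 to 22.5) lower, and *Gata3* had 12 and 11.8 CPM against 74.1 and 73.5 CPM. *Myc*, also a Notch target, was the exception among the 9, with 75.2 and 74.1 CPM against 76.6 and 91.7 CPM. Thinned to 1500 UMIs, at least 3 UMIs of the Notch list were in 0% and 1.73% of members, 7.62% and 6.32% of negative progenitors and 30.1% and 36.7% of all others. Without thinning the shares were 19.3% and 14.3%, 41.9% and 36.4%, and 79.2% and 77.5%. *Mfng*, which modifies the Notch receptor and was named after its values were seen, was among the 61 higher genes, with 156 and 112 CPM against 56 and 52.5 CPM.

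Promoter sequence was looked at for this group because 8 of its 9 genes tested were lower. RefSeq windows (GRCm38.p6) covered 10 of the 14 Notch genes, with 11 windows of 250 bases before a gene start. The core that the Notch partner RBPJ binds, TGGGAA on either strand, was in 2 of the 11 windows (18.2%) and in 21.6% of 32851 windows of all genes. The match is a description and not a binding site. *Ptcra*, on the minus strand of chr17:46763714-46763821, held it at 2 places, shown in capitals.

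Ptcra: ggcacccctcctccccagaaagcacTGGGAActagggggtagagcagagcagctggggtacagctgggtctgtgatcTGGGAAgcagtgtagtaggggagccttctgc

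Genes of other cell types were low for some lists and not for others. B lineage genes outside the rule, 11 in all and none tested, had 0 UMIs in FL001 and 5 in FL002 (3.94 CPM). Of 8 mast cell genes, *Cpa3* alone was tested and was lower, with 27.1 and 48.9 CPM against 94.3 and 101 CPM. Of 14 innate lymphoid and NK genes, 4 were tested and all were lower (*Gzma*, *Gzmb*, *Id2* and *Nkg7*). Hepatic and stromal genes had 5.02 and 9.46 CPM in all, with *Afp* the most abundant, and *Alb* had 0 UMIs in both libraries. Endothelial genes, 10 in all, summed to 258 and 256 CPM in members against 112 and 108 CPM. Of them *Egfl7* was tested and was higher, with 194 and 193 CPM against 77.6 and 73 CPM. The defining endothelial gene *Cdh5* had 1 and 2 UMIs, while *Emcn* (endomucin, also of stem cells) had 32.1 and 19.7 CPM against 2.05 and 2.7 CPM. Dendritic genes, 11 in all, summed to 311 and 285 CPM in members against 262 and 240.0 CPM, with *Cst3* the most abundant, and the 1 gene tested was within 2-fold.

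Myeloid primary granule genes were present in members. The granulocyte and monocyte list summed to 948 and 851 CPM in members against 1026 and 539 CPM in all others. *Mpo* (myeloperoxidase) had 516 and 492 CPM in members, 359 and 258 CPM in all others, 47.5 and 65 CPM in *Cd3g* barcodes and 303 and 247 CPM in near-empty droplets. It was found in 74.1% and 61% of members. *Prtn3* (proteinase 3) had 232 and 212 CPM against 177 and 119 CPM in all others. Both were within 2-fold in both libraries. *Lyz2* (lysozyme) was higher, with 159 and 106 CPM against 67.8 and 44.8 CPM. *S100a9*, a granulocyte gene like the *S100a8* of the rule, was lower, with 2 UMIs in FL001 and 0 in FL002, at least 33.9-fold lower there than all others. Of 18 megakaryocyte and erythroid genes, which summed to 399 and 364 CPM in members, 0.836 and 1.45 times their sum in all others, 3 were tested. *Car2* (carbonic anhydrase II) was higher, with 279 and 245 CPM against 61.9 and 75.7 CPM, and *Tfrc* (the transferrin receptor) was lower, with 14 and 14.2 CPM against 68 and 66.4 CPM.

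Immediate early genes, which respond within minutes to stimulation and to cell handling, were higher in members. Of 15 immediate early and stress genes, 11 were tested, 8 were past 2-fold higher and 0 lower, with median log2 ratios of 1.59 and 1.67. *Klf2*, a factor of quiescence and shear stress, had 216 and 720.0 CPM in members against 51.1 and 135 CPM, ratios of 4.22 (3.61 to 4.92) and 5.34 (4.95 to 5.76). *Fos* had 401 and 813 CPM against 144 and 256 CPM, and *Jun*, its partner in AP-1, had 338 and 781 CPM against 109 and 217 CPM. *Fosb*, *Egr1*, *Dusp1* (which overlaps *Ergic1*), *Klf6* and *Zfp36* were the other higher ones. *Hspa1a*, a heat shock gene of stressed cells, had 7.02 CPM in members and 12.4 CPM in all others of FL001, but 218 and 81.1 CPM in FL002. The list as a whole took a median of 0.207% of a member's UMIs in FL001 and 0.474% in FL002, against 0.065% and 0.0823% in all others. The part of cell handling in these levels was not tested.

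One promoter of this group is shown, that of *Dusp1*, whose window alone held the element below. *Dusp1* was among the higher genes and differed between the libraries, and so were *Klf2*, *Jun*, *Klf6* and *Fos*. A cAMP response element, TGACGTCA, was in 1 of 13 RefSeq windows of the immediate early list (7.69%) and in 1.55% of all windows, and the AP-1 motif TGAGTCA was in 0 of 13 and 4.46% of all. The stretch of *Dusp1* lies on the minus strand at chr17:26508583-26508640, with the element in capitals.

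Dusp1: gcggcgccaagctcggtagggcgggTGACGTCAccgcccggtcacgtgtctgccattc

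**Figure D3:**
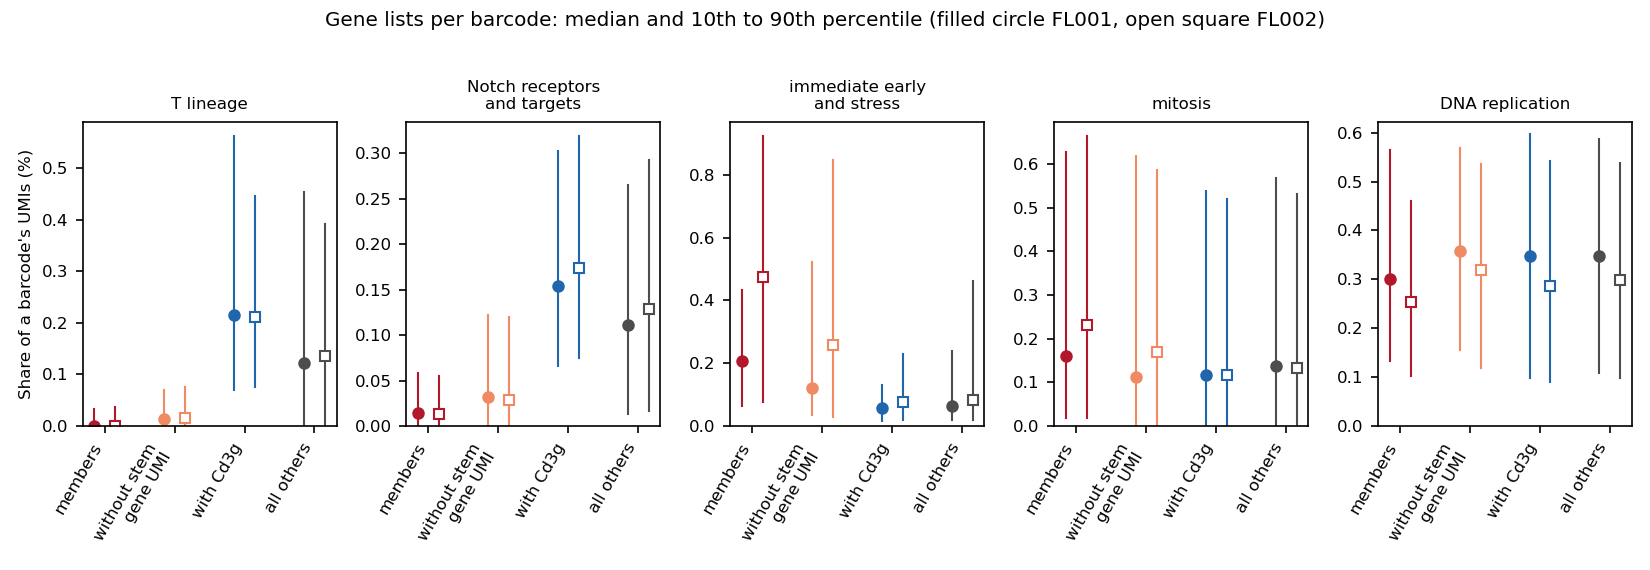
Share of a barcode's UMIs (%) taken by 5 gene lists, in members, progenitors without a stem gene UMI, *Cd3g* barcodes and all other kept barcodes. Markers are medians (filled circle FL001, open square FL002) and lines run from the 10th to the 90th percentile of barcodes. Members lie lowest for T lineage and Notch genes and highest for immediate early genes, at medians of 0.207% and 0.474%, while the replication and mitosis lists overlap widely.

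Members were next set against the negative progenitors, which shared every condition except the UMI of *Meis1*, *Hlf* or *Mecom*. Far fewer genes differed. Of 3056 genes tested, 5 were past 2-fold higher in members in both libraries (0.164%) and 17 past 2-fold lower (0.556%). The higher genes included *Gcnt2*, *Meg3*, *Adgrl4* and *Apoe*. With every barcode thinned to 1500 UMIs, 2 of the 5 higher and 9 of the 17 lower genes were still past 2-fold in both libraries at the minimum level. In FL001 alone 32 genes were higher and 38 lower, and in FL002 alone 13 and 24.

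*Adgrl4* had 222 and 181 CPM in members of FL001 and FL002 and 84.8 and 83.2 CPM in negative progenitors, ratios of 2.62 (1.99 to 3.47) and 2.17 (1.74 to 2.72). *Meg3* had ratios of 2.22 (1.63 to 3.05) and 3.61 (2.31 to 5.81), *Gcnt2* of 3.23 (1.93 to 5.66) and 2.34 (1.51 to 3.67), and *Apoe* of 2.78 (2.21 to 3.52) and 2.1 (1.7 to 2.61). *Adgrl4* stayed past 2-fold in all 10 alternatives that could change its ratio, while *Meg3* and *Apoe* were short of it in 2 of them and *Gcnt2* in 1. *Cd34* was close in both sets, at 300.0 and 284 CPM in members and 219 and 239.7 CPM in negative progenitors. *Hoxa9* had ratios of 2.58 and 1.72, so that it stayed short of 2-fold in FL002. *Flt3* had 48.2 and 47.3 CPM in members and 39.4 and 31.4 CPM in negative progenitors, and *Mpo* 516 and 492 CPM and 556 and 528 CPM.

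The lower genes were led by *Hes1*, *Ifi202b*, *Tcf7*, *Scin*, *Trbc2*, *Tyrobp*, *Nrarp* and *Cd82*. *Hes1* had 14 CPM (7.68 to 23.6) in members and 51.3 CPM (37.2 to 69.2) in negative progenitors of FL001, and 14.2 CPM (8.41 to 22.4) and 64.2 CPM (52.1 to 78.2) in FL002. *Tcf7* had 15 and 20.5 CPM in members and 60.9 and 66.8 CPM in negative progenitors, ratios of 0.247 (0.129 to 0.446) and 0.307 (0.191 to 0.476), and *Nrarp* 39.1 and 18.1 CPM and 104 and 83.8 CPM, ratios of 0.377 (0.251 to 0.556) and 0.216 (0.132 to 0.339). The counting intervals of the sets did not overlap for these 3 genes in either library, but the genes were picked by their ratios in the same counts. How many of all genes tested had separate intervals was not computed, so no weight is put on this. Of the Notch list, 5 genes were tested and these 3 were past 2-fold lower, none higher, with median log2 ratios of -1.41 and -1.70. The 3 reached 50 CPM in negative progenitors alone, so that minimum favoured the lower direction in the count and the median.

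*Trbc2* had 329 and 266 CPM in members and 951 and 929 CPM in negative progenitors, and *Trbc1*, a near copy whose reads may be split with it, had ratios of 0.109 (0.0606 to 0.185) and 0.413 (0.289 to 0.582). *Ifi202b*, an interferon-induced gene with close relatives in the genome, had 44.1 and 38.6 CPM and 226 and 138 CPM. *Trbc2* had the highest level of the 8 in negative progenitors. *Scin* (an actin-severing protein) had ratios of 0.311 and 0.344, *Tyrobp* (the DAP12 adaptor of NK and myeloid cells) 0.346 and 0.371, and *Cd82* (a tetraspanin) 0.35 and 0.392, and *Cd82* was short of 2-fold in 1 alternative. *Id2* and *Nkg7* of the innate lymphoid and NK list were also lower. Most surface, regulator and *Hox* genes missed the minimum level. None of the 6 stem cell surface, 7 regulator, 2 *Hox*, 5 fetal program, 18 replication, 18 mitosis and 11 immediate early genes that were tested was past 2-fold in both libraries. Of 5 imprinted growth genes tested, *Meg3* alone was. The immediate early list had median log2 ratios of 0.53 and 0.53.

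Levels were then followed over the number of UMIs of *Meis1*, *Hlf* and *Mecom* in a barcode, from 0 in the negative progenitors to 3 or more. In FL001 *Hoxa9* had 47.8, 104, 128 and 145 CPM at 0, 1, 2 and 3 or more UMIs, and in FL002 it had 77.3, 125, 137 and 158 CPM. As counted, it was higher at each step in each library. Thinned to 1500 UMIs, *Hoxa9* had 63.5, 35.7, 129 and 194 CPM in FL001, from 10, 3, 6 and 14 UMIs, so that the first step went the other way, and 74.3, 127, 172 and 241 CPM in FL002. *Cd34* changed little past 1 UMI, with 219, 311, 275 and 302 CPM and then 239.7, 283, 289.5 and 277 CPM. As counted, *Hes1* was lower at each step, with 51.3, 20.4, 13.7 and 5.92 CPM in FL001 and 64.2, 18.6, 12.7 and 0 CPM in FL002. *Ifi202b* had 226, 81.8, 36.6 and 0 CPM and then 138, 51.9, 31.8 and 0 CPM, where 0 UMIs allow up to 10.9 and 18.2 CPM by the upper 95% limit. Thinned to 1500 UMIs, *Hes1* had 57.1, 35.7, 0 and 13.9 CPM in FL001, from 9, 3, 0 and 1 UMIs, so that the last step went up, and 62.0, 24.3, 23.0 and 0 CPM in FL002. Median depth at 0, 1, 2 and 3 or more UMIs was 7545, 6945.5, 6234 and 6170.5 UMIs in FL001, falling at each step, and 5455, 5316, 5190.5 and 5495 UMIs in FL002.

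**Figure D4:**
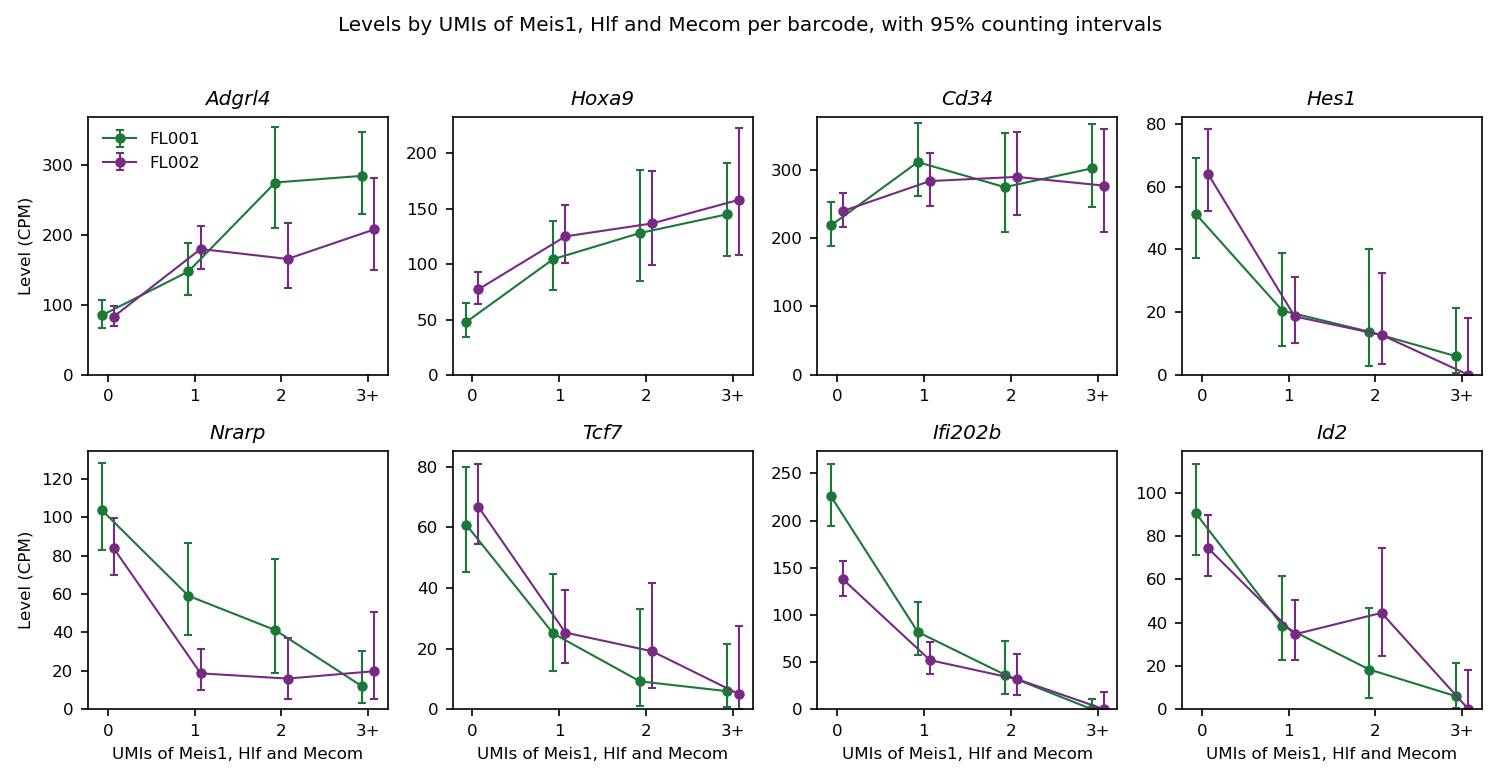
Level in CPM (y axis, from 0) of 8 genes over the number of UMIs of *Meis1*, *Hlf* and *Mecom* in a barcode (x axis), for FL001 and FL002, with 95% exact Poisson intervals. *Adgrl4* and *Hoxa9* are highest and *Hes1*, *Nrarp*, *Tcf7*, *Ifi202b* and *Id2* lowest in barcodes with UMIs of the 3 genes, as for *Hes1* at 51.3 CPM with 0 UMIs and 5.92 CPM with 3 or more in FL001.

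Members were also split by which of the 3 genes they held. Those with *Hlf* or *Mecom* were 94 in FL001 and 145 in FL002, and those with *Meis1* alone were 41 and 86. Their median depths were 6222 and 7804 UMIs in FL001 and 5030 and 5754 UMIs in FL002. Of 3047 genes tested, 3 were past 2-fold higher with *Hlf* or *Mecom* in both libraries (0.0985%) and 9 past 2-fold lower (0.295%). These 12 became 131 in FL001 alone and 35 in FL002 alone. With at least 2 UMIs of the 3 genes required there were 62, which held 6 of the 12. The higher genes, *Smpdl3a* (a phosphodiesterase), *Nop2* (an RNA methyltransferase of the nucleolus) and *Plk2* (a polo-like kinase), lay close to the limit. *Smpdl3a* had 65.8 and 56.1 CPM with *Hlf* or *Mecom* in FL001 and FL002 and 27.4 and 25.9 CPM with *Meis1* alone, ratios of 2.4 (1.16 to 5.6) and 2.17 (1.14 to 4.4). The intervals of the other pair reached below 1 in FL001, and all 3 were short of 2-fold in 2 or more alternatives.

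The lower genes included *Gzma* and *Nkg7*, the only genes of the innate lymphoid and NK list that were tested, and *Trbc2*. Of the T lineage list 1 gene was tested and 0 were lower. *Ifi202b* had 8 UMIs (12 CPM) with *Hlf* or *Mecom* and 36 UMIs (109.6 CPM) with *Meis1* alone in FL001. In FL002 it had 6 UMIs (7.83 CPM) and 43 UMIs (85.6 CPM), and it was 9.15-fold (4.18 to 22.8) and 10.9-fold (4.63 to 31.4) lower. *Gsn* (gelsolin, which severs actin) had 8.98 and 10.4 CPM with *Hlf* or *Mecom* and 51.8 and 57.8 CPM with *Meis1* alone, and *Nkg7*, a cytotoxic granule gene, 43.4 and 32.6 CPM and 158 and 121 CPM. *Bex6* was 3.56-fold and 3.97-fold lower. *Gzma* was 12.3-fold (7.54 to 21.2) and 3.56-fold (2.23 to 5.81) lower, but its log2 ratio turned to 0.36 in the library with the weaker difference when members needed 2 UMIs of the 3 genes. *Trbc2*, *Serpinb6b*, *Coro2a* and *Plac8* were the other lower genes. Thinned to 1500 UMIs, 5 of the 12 genes were still past 2-fold in both libraries at the minimum level.

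Single members were also split by *Hlf* alone. Of members with *Hlf*, 2 of 77 in FL001 (2.60%, 0.316% to 9.07%) and 2 of 117 in FL002 (1.71%, 0.208% to 6.04%) held a UMI of *Hes1*. Of members without it, 10 of 58 (17.2%, 8.59% to 29.4%) and 10 of 114 (8.77%, 4.29% to 15.5%) did. The intervals overlapped in each library. *Tcf7* was in 2.60% and 3.42% of members with *Hlf* and in 17.2% and 9.65% of those without. The median depths were 6784 and 6814 UMIs in FL001 and 5312 and 5249.5 in FL002. *Flt3* was found with *Hlf* in 32.5% and 23.1% and without it in 13.8% and 19.3%.

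Last, members of FL001 were compared with members of FL002. No stated condition separates the libraries, and the values are given with no reading. Of 3262 genes tested, 7 were past 2-fold higher in FL001 (0.215%) and 20 past 2-fold higher in FL002 (0.613%). Of these 27 genes, 12 were past 2-fold the same way in all other kept barcodes. *Akr1e1*, an aldo-keto reductase, had 51.2 CPM in members of FL001 and 15 CPM in those of FL002, and *Tpm3-rs7* had 176 and 74.1 CPM, both with like ratios in the other barcodes. *Gpbp1l1* (50.2 and 21.3 CPM) and *Wdr83os* (59.2 and 27.6 CPM) were the other leading genes. *Meg3* had 154 and 63.9 CPM in members, a log2 difference of 1.26 beside 0.73 in all others. Higher in FL002 were *Hist1h2ap*, a histone gene with near-identical copies, with 2 UMIs in FL001 (2.01 CPM) and 62.3 CPM, *Hspa1a* with 7.02 and 218 CPM, *Scand1* with 10 and 191 CPM, *Tgfb1* with 17.1 and 196 CPM and *Cwc22* with 17.1 and 77.3 CPM. *Klf2*, *Dusp1*, *Jun*, *Jund*, *Klf6* and *Fos* of the immediate early list were also among the 20.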

How the data were processed

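The authors made 10X Chromium libraries, sequenced them from the 3' end and counted UMIs with CellRanger, of a version not given in the sources used here. The submitters' processing notes name mm9, while the files hold no coordinates. The deposited values are raw UMI counts of 28692 genes in 737280 barcodes a library, unnormalized and not selected for cells, with 16320118 UMIs in FL001 and 22651783 in FL002. Barcodes were kept per library as stated, which left 1788 of 1824 and 4100 of 4113 barcodes with 1500 UMIs. The members and all 22 gene lists were chosen with earlier results of these data known.

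UMIs were summed over a set and scaled to CPM. Intervals at 95% were exact Poisson for levels, exact binomial for shares and exact conditional for ratios. A gene was compared where either set had 50 CPM in both libraries, and was named past 2-fold where it was so in both. Where a set had 0 UMIs, 3 were used as a floor. The text names, from the 12 leading genes each way against all others, 8 against negative progenitors, 5 within members and 5 between libraries, and from the lists, those that are reported here (some items are not); *Trbc1*, *Mfng*, *Trbc2* against all others and within members, *Serpinb6b*, *Coro2a*, *Plac8* and the genes under other observations were added after the values were seen. The 125 symbols shared by several genes were left out of lists. Overlapping genes came from GENCODE M21 by identifier (28339 matched).

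Scrublet (scanpy 1.11.5, expected rate 0.06) marked 7 and 1 barcodes, under 0.5% of each library, so doublets were kept, and the 116 and 252 barcodes at or above the score that marks the highest 5%, ties included, were removed as an alternative. The comparison was tested on simulated data with 200 genes changed 4-fold. It found 200 of them against all other barcodes, among 2943 genes, and 192 against negative progenitors, among 2888, and 0 unchanged genes. The simulated UMIs were drawn with counting error alone from the summed profile of both sets. The changed genes had at least 50 CPM in that profile in both libraries. No other spread between barcodes was simulated, so the result cannot give the number of false calls in the real data. All alternatives were computed with numpy and scipy.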

Additional observations from a re-analysis of the deposited data

How the results depend on the processing

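There were 16 alternatives, 2 of them (each library alone) chosen after seeing the data, as were all alternatives for the comparison between the libraries. In the 10 that could take a named gene below 2-fold, all 24 genes named against all other barcodes stayed past 2-fold, as did 9 of 13 against negative progenitors and 3 of 8 within members, by fold alone and without the minimum level. Against all others, the 61 higher and 105 lower genes became 121 and 168 at a fold of 1.5, 28 and 62 at a fold of 3, 138 and 192 at a minimum of 20 CPM, and 33 and 53 at 100 CPM. Against negative progenitors, the 5 higher and 17 lower became 26 and 43, 0 and 3, 16 and 40, and 3 and 5 in the same order. Within members, the 12 genes that differed between *Hlf* or *Mecom* and *Meis1* alone became 58, 5, 49 and 4, and the 27 between the libraries became 165, 9, 136 and 16. With mitochondrial and ribosomal protein genes left out of the CPM, 94 genes were higher against all others, 10 were higher against negative progenitors, 19 differed within members and 45 between the libraries. With at least 2 UMIs of *Meis1*, *Hlf* and *Mecom*, the members were 4.42% and 2.29% of barcodes, 13 genes were higher and 27 lower against negative progenitors, 62 differed within members and 64 between the libraries, and *Gzma* reversed to a log2 ratio of 0.36 within members. Of the 12 genes within members, 6 were among those 62, and 5 among the 8 found with each barcode given equal weight. With 0 UMIs of *Cd3g* required, 12 of the 17 genes lower against negative progenitors were left. Thinned to 1500 UMIs, 9 genes were higher and 23 lower against negative progenitors, 56 differed within members and 237 between the libraries, but these held only 2 of the 5 higher, 9 of the 17 lower and 5 of the 12 genes named past 2-fold without thinning, beside 50 of the 61 higher and 91 of the 105 lower against all others. In FL001 alone, 95 genes were higher against all others, 32 were higher and 38 lower against negative progenitors, and 131 differed within members. In FL002 alone, 13 were higher against negative progenitors and 35 differed within members. With both libraries added up these were 12 and 31. The cause of these moves was not tested where the setting itself does not change the number of genes, barcodes or UMIs compared. Sets of barcodes were compared within each library. No test over the 2 libraries was run. The small sets limit what low genes can show, since 1 UMI over all members is about 1 CPM.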

Other observations

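Other genes that differed between members and all other kept barcodes fell into groups that were formed only after the values were known, so no count of them is given. Some enzymes of cholesterol synthesis were among the genes past 2-fold lower in members. *Hmgcs1*, a synthase early in the pathway, had 21.1 and 27.6 CPM in members of FL001 and FL002 against 91.1 and 79.1 CPM in all others. *Idi1* had 41.1 and 45.7 CPM against 135 and 127 CPM, *Fdps* 40.1 and 30.8 CPM against 122 and 80 CPM, and *Msmo1* 43.1 and 32.3 CPM against 102 and 93.6 CPM. *Sqle*, of the same pathway, was within 2-fold, with ratios of 0.622 and 0.586. *Fdps* was also past 2-fold lower against negative progenitors, with ratios of 0.431 (0.287 to 0.639) and 0.484 (0.325 to 0.709).

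Some genes known to respond to interferon were lower too. *Ifitm3*, which blocks virus entry, had 379 and 397 CPM in members against 1251 and 1349 CPM in all others and 1261 and 1410.0 CPM in near-empty droplets. *Bst2* (tetherin) had 50.2 and 72.6 CPM against 107 and 232 CPM, and *Psmb8*, a subunit of the immunoproteasome, 144 and 157 CPM against 359.9 and 343 CPM. Against negative progenitors the ratios were 0.608 and 0.606 for *Ifitm3*, 1.05 and 0.612 for *Bst2* and 0.563 and 0.733 for *Psmb8*, none past 2-fold.

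A few cytokine genes were higher in members. *Ccl4*, a chemokine, had 54.2 and 108 CPM against 18.6 and 37.7 CPM in all others, *Il12a* 52.2 and 56.8 CPM against 18.8 and 18.1 CPM, and *Ebi3*, whose product pairs with that of *Il12a*, 66.2 and 66.2 CPM against 28.6 and 29.6 CPM. *Ccl4* had 78.8 and 70.1 CPM in negative progenitors, above the members in FL001 and below them in FL002.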
